A study of Homo sapiens with 6 samples.

Results

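The amino acid transporter genes of the SLC families 1, 3, 6, 7, 36, 38 and 43 were examined in RNA of Huh-7 cells, an established human hepatocellular carcinoma line. Every gene of the deposited table whose symbol starts with SLC1A, SLC3A, SLC6A, SLC7A, SLC36A, SLC38A or SLC43A followed by a digit was taken, which gave 60 of 20332 genes. One of them, SLC7A6OS, lies on the opposite strand of SLC7A6 and is not itself a transporter, which leaves 59 transporter family genes. Where transporter genes are counted or summed below over all systems, SLC7A6OS is included. Huh-7 cells with stable overexpression of RAC3, a small GTPase, introduced by lentivirus (3 samples), were compared with negative control cells labelled wild type (3 samples). Whether the stable cells were a pool or a single clone, and which vector the controls carried, is not given in the sources used here. The samples were described as independent RNA samples, and p-values measure the spread between these samples only.

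Total counts lay between 13855762 and 18199888 per sample, and where a sample had 0 counts of a gene, as many as 3 could have been missed, or 0.165 to 0.217 CPM, by counting error alone. RAC3 itself had 35.6, 31.4 and 32.8 CPM in the controls and 232.6, 239.6 and 225.4 CPM in the RAC3 samples, although the genotype labels of RAC3 samples 2 and 3 name other genes than RAC3. CPM here are counts divided by library size and scaled by TMM factors, and serve to compare samples. FPKM, values that the authors normalized by transcript length and library size, serve to compare levels between genes. Differences are given as the log2 fold change of RAC3 overexpression over negative control with its standard error (SE). The adjusted p is that of the quasi-likelihood F test of edgeR, corrected by the Benjamini-Hochberg method over all 12941 genes tested. Of 12 hepatocyte and liver cancer markers all 12 were tested, and their summed level was 5764 to 5816 CPM in the controls and 5241 to 5758 CPM in the RAC3 samples. Of the markers of other cell types, the leukocyte markers summed to at most 50.7 CPM and the endothelial markers to at most 3.77 CPM in any sample. The 6 fibroblast and stellate cell markers summed to 232.8 to 249.01 CPM in the controls and 272.5 to 285.1 CPM with RAC3, and the 4 cholangiocyte markers to 952 to 971 CPM against 774 to 832 CPM. At an adjusted p below 0.05, 2 of 5 fibroblast markers tested were higher and 1 lower, with a median log2 fold change of -0.12. Of the hepatocyte markers 3 were higher and 5 lower. Of 3 leukocyte markers tested, 1 was higher and 1 lower, and of 3 cholangiocyte markers tested, 0 and 2. Over all genes tested, 13.3% were higher and 15.3% lower. The part of these shifts in the results below was not tested, and none of the marker genes was at 0 in all samples.

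Amino acids cross membranes through carriers that differ in what they bind and in what drives them. Heteromeric transporters pair a glycoprotein heavy chain, SLC3A2 (also called CD98 or 4F2hc) or SLC3A1, with a light chain of the SLC7 family that carries the substrate and exchanges extracellular for intracellular amino acids. Sodium-coupled carriers of the SLC1, SLC6 and SLC38 families load the cell against a gradient. The proton-coupled SLC36 carriers and several SLC38 proteins act at the lysosome. SLC43A1 and SLC43A2 pass large neutral amino acids without ion coupling. Hepatocytes use these systems for ureagenesis, glutamine turnover and protein synthesis, and many liver cancer cells carry high levels of SLC7A5 and SLC1A5. When amino acids are short, the transcription factor ATF4 binds with C/EBP proteins to C/EBP-ATF response elements (CARE) of several of these genes, and factors of the MYC and MiT/TFE families bind E-boxes.

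Promoter sequences of the transporter genes are shown because the CARE core and the E-box are the binding motifs of regulators known for several of these genes. RefSeq windows on GRCh38.p14, from 250 bases before to 50 bases after a transcription start, were found for 44 of the 60 genes, among them 30 of the genes tested. The CARE core was searched as TGATGNAA on both strands, where N is any base, and no other motif was masked. It was found in 3.62% of all 35116 windows and for 4.46% of the genes with a window, and for 6 of the 30 tested transporter genes. The core and up to 60 bases on each side are given, 5′ to 3′ on the strand of the gene, with the core in capitals.
SLC1A5, chr19:46784844-46784971, minus strand: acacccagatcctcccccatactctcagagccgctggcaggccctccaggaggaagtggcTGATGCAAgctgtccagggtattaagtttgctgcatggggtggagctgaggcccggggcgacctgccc
SLC1A4, chr2:64989332-64989448, plus strand: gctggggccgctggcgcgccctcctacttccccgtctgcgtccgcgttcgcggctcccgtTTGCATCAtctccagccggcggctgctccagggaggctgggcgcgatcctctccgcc
SLC3A2, chr11:62881676-62881748, plus strand: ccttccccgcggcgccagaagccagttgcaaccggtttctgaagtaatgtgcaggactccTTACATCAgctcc
SLC7A1, chr13:29595639-29595741, minus strand: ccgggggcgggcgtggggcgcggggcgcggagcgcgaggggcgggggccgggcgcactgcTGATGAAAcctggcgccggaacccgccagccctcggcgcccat
SLC38A1, chr12:46266467-46266580, minus strand: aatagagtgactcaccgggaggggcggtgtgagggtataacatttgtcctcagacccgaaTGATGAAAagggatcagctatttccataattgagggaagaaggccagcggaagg
SLC1A3, chr5:36596338-36596435, plus strand: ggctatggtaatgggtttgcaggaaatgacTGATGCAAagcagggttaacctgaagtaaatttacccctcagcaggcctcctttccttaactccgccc
The first 4 of these genes were lower with RAC3 overexpression at an adjusted p below 0.05, and SLC38A1 and SLC1A3 did not pass. Thus 4 of the 11 lower genes with a window held the core, 0 of the 2 higher genes and 2 of the 17 genes that did not pass the test. In SLC1A4 and SLC3A2 the core read on the complement strand, and it lay 97 bases before the start in SLC1A5, 7 bases before it in SLC1A4, and inside the first 50 transcribed bases in SLC3A2 and SLC7A1.

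The E-box CACGTG, which reads the same on both strands, was present in 7.26% of all windows and for 8.77% of the genes with a window. It was found for 9 of the 30 tested transporter genes, of which 4 were lower and 5 did not pass. The windows of the 4 lower genes are given because these genes are among the most abundant transporter transcripts of the cells, with the E-box in capitals.
SLC7A5, chr16:87869572-87869697, minus strand: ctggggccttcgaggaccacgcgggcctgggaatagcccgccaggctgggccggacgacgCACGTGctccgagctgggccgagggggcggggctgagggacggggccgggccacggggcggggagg
SLC43A1, chr11:57515749-57515874, minus strand: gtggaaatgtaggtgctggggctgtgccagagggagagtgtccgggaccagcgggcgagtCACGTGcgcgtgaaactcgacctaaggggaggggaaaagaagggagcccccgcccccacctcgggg
SLC7A7, chr14:22816031-22816121, minus strand: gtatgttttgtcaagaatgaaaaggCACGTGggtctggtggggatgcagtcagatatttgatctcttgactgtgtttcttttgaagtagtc
SLC1A5, chr19:46787278-46787403, minus strand: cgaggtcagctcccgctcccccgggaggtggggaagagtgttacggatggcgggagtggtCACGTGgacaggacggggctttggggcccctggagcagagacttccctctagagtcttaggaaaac
The E-box of SLC1A5 belongs to another transcription start than its CARE core. The 5 genes with an E-box that did not pass were SLC1A7, SLC36A1, SLC38A7, SLC6A16 and SLC7A8. These matches describe the letters of the windows and show no binding.

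The transporter transcripts of these cells were dominated by exchangers. Per length, the heavy chain SLC3A2 had the highest level at 165 FPKM (mean of 6 samples), followed by the glutamine exchanger SLC1A5 with 163 FPKM, the light chain SLC7A7 with 159 FPKM and the light chain SLC7A5 with 150.2 FPKM. In the controls SLC1A5 was the highest, with all 3 samples above those of the other three, whose samples overlapped between 162 and 173 FPKM. In the RAC3 samples SLC7A5, with 128 to 141 FPKM, lay under SLC7A7 and SLC3A2 in every sample, and SLC1A5 overlapped with its neighbours. SLC38A2, a system A carrier of small neutral amino acids, was at 103 FPKM, SLC43A1, a facilitator of large neutral amino acids, at 85.7 FPKM, and SLC6A8, the creatine transporter, at 50.6 FPKM. In the controls SLC38A2 and SLC43A1 overlapped, and in the RAC3 samples SLC38A2 was wholly above (107 to 112 against 73.2 to 79.4 FPKM). SLC43A3, SLC38A10 and SLC38A1 completed the 10 highest with 36.1, 35.8 and 30.7 FPKM. Summed over all 60 genes, the level was 1249 ± 19.1 FPKM (SD, n = 3) in the controls and 1133 ± 26.1 FPKM (SD, n = 3) with RAC3 overexpression, a ratio of 0.908. In a bulk sample, fewer cells with a transcript and less of it per cell cannot be told apart.

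**Figure D1:**
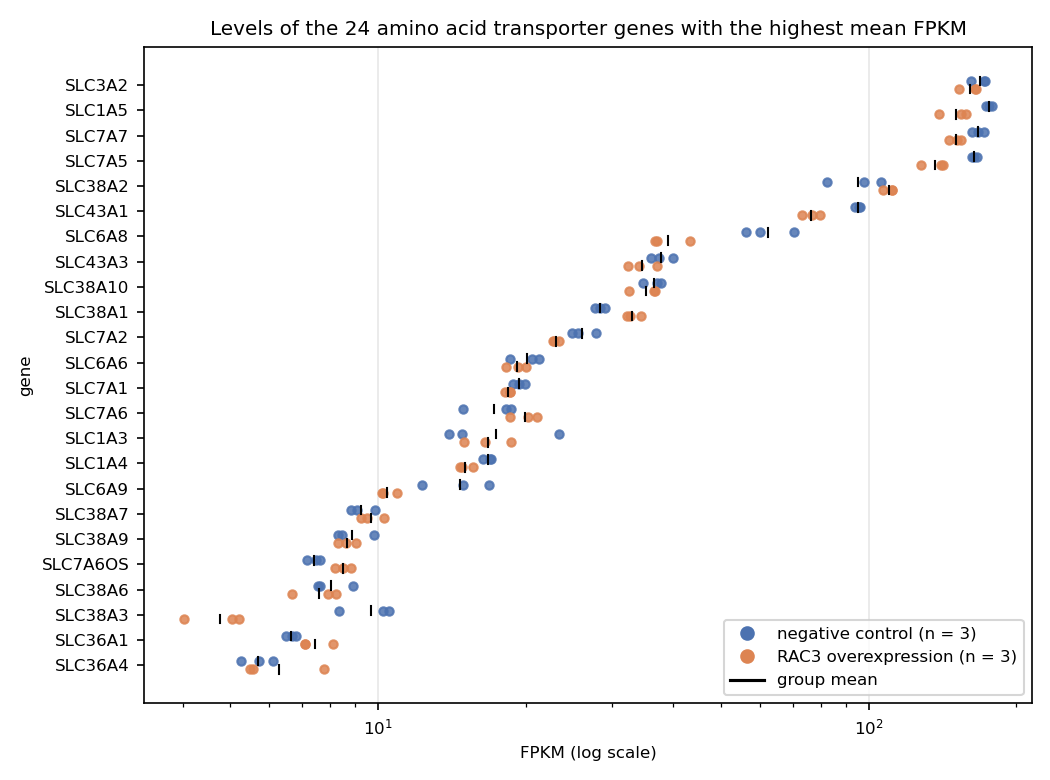
FPKM (log axis) of the 24 transporter genes with the highest mean level, one row a gene, with a point per sample for the 3 negative controls and the 3 RAC3 samples and a black line at each group's mean. The 4 most abundant genes lie between 150.2 and 165 FPKM on average, and the largest gaps between the groups are those of SLC6A8 and SLC38A3.

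Of the 60 genes, 38 had enough counts to be tested, 15 passed an adjusted p below 0.05 (39.5%), and 13 of these were lower with RAC3 overexpression (34.2%) and 2 higher (5.26%). Over all genes tested, 28.5% passed, 15.3% lower and 13.3% higher. In all 15 genes the 3 RAC3 samples lay wholly on one side of the 3 controls, and over the 38 genes this held for 21 (55.3%, with 15 lower and 6 higher), against 42.5% of all genes tested. Among genes with a mean of at least 1000 counts, 9 of 15 transporter genes were lower and 1 higher, beside 26.1% lower and 18.9% higher of all genes so well counted. The median log2 fold change was -0.12 over the 38 genes and 0.0036 over all genes. With scaling by library size alone the corresponding medians were -0.06 and 0.06, the lower genes numbered 9 and the higher genes, SLC7A6OS among them, 4. At a fold change above 1.5 and an unadjusted p below 0.05, 4 transporter genes passed (10.5%), all 4 lower, against 4.68% of all genes in either direction, 2.99% lower and 1.68% higher.

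**Figure D2:**
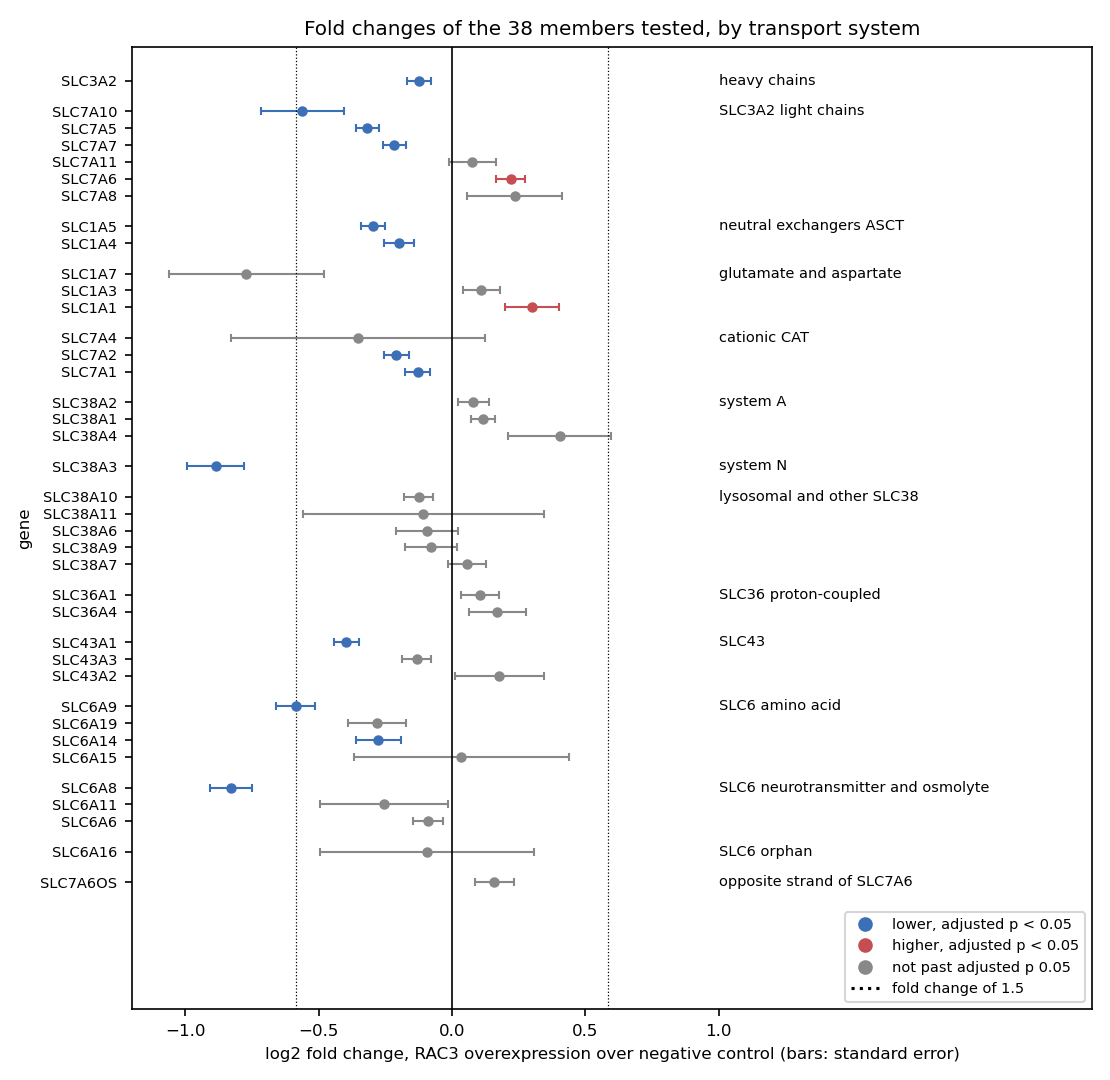
Log2 fold change of RAC3 overexpression over negative control (horizontal axis) for the 38 genes tested, SLC7A6OS among them, grouped by transport system. Bars give the standard error, colours the calls at an adjusted p of 0.05, and dotted lines a fold change of 1.5. SLC38A3, SLC6A8 and SLC6A9 are past the dotted line on the left with a call, and the 2 called genes on the right are SLC7A6 and SLC1A1.

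The largest change of a called gene was that of SLC38A3 (ENSG00000188338, GRCh38 chromosome 3 from 50205246 to 50221486), the system N carrier SNAT3, which moves glutamine, histidine and asparagine in hepatocytes. It had 27.5, 23.97 and 22.5 CPM in the controls and 13.4, 14.6 and 11.7 CPM in the RAC3 samples. All RAC3 samples were thus well under the lowest control. The fit gave a log2 fold change of -0.89 (SE 0.106, adjusted p = 6.0e-06), which is 1.85-fold lower. Its level per length fell from 9.70 ± 1.2005 to 4.76 ± 0.634 FPKM (SD, n = 3 each). The other system N gene, SLC38A5, had between 2 and 10 counts per sample and was not tested, so that the summed system N level, which with RAC3 was 0.511 of that in the controls, rested on SLC38A3.

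System A, which takes up alanine, serine, glutamine and other small neutral amino acids with sodium, showed no call in its 3 genes. SLC38A2 (SNAT2) had 359, 401 and 451 CPM in the controls and 430.2, 411 and 439.7 CPM in the RAC3 samples, and the groups overlapped (log2 fold change 0.08, adjusted p = 0.33). Without negative control 3 it passed, with a log2 fold change of 0.16 (adjusted p = 0.029), and without negative control 1 the log2 fold change was -0.0011. SLC38A1 (SNAT1) had 193, 206 and 200.4 CPM against 224, 212 and 214 CPM, with the groups apart and an adjusted p of 0.062 (log2 fold change 0.12). It passed at 0.17 with scaling by library size alone and on the log2 FPKM scale (adjusted p = 0.027), and was -0.0048 with the GC trend removed. SLC38A4 (SNAT4), an amino acid carrier of liver, was low in these cells with 3.37, 5.33 and 5.02 CPM in the controls and 6.87, 5.53 and 5.82 CPM with RAC3 (log2 fold change 0.40, SE 0.193, adjusted p = 0.13). The summed system A level was 125.0 ± 12.3 FPKM in the controls and 145.1 ± 3.16 FPKM with RAC3 (SD, n = 3 each), and the lowest RAC3 sample (141.6 FPKM) was above the highest control (135.4 FPKM). In summed CPM the ratio was 1.07 rather than 1.16, and the groups overlapped. The 3 genes neighbour each other on chromosome 12, SLC38A1 and SLC38A2 with a gap of 88.2 kb and SLC38A2 and SLC38A4 with a gap of 391.9 kb.

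Of the summed FPKM of the 60 genes, the light chains of SLC3A2 held 28.6% in the controls and 27.9% with RAC3, and the heavy chains 13.5% and 14.2%. SLC3A2 had 346, 323 and 342 CPM in the controls and 292, 319 and 317 CPM in the RAC3 samples, and its log2 fold change of -0.12 passed by a small margin (SE 0.0451, adjusted p = 0.046). The highest RAC3 sample and the lowest control were separated by 3.7 CPM. The call was lost without RAC3 sample 1, RAC3 sample 3, negative control 1 or negative control 3 (adjusted p from 0.077 to 0.18). With the GC trend removed the log2 fold change was 0.00048 (adjusted p = 0.99). In FPKM it was 168.7 ± 5.98 in the controls and 161.0 ± 6.98 with RAC3 (SD, n = 3 each), and the samples of the groups overlapped. SLC3A1, the heavy chain of the cystine and dibasic amino acid transporter of kidney and gut, had at most 12 counts per sample and was not tested.

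Of the 6 light chains of SLC3A2, 3 were lower and 1 was higher. SLC7A5 (LAT1, ENSG00000103257, chromosome 16 from 87830023 to 87869488), which imports leucine and other large neutral amino acids in exchange for glutamine, had 767, 750.5 and 761 CPM in the controls and 568, 629 and 633 CPM with RAC3. No RAC3 sample came near the controls, and the log2 fold change was -0.32 (SE 0.0427, adjusted p = 2.2e-05). In FPKM it went from 163.9 ± 1.92 to 136.5 ± 7.59 (SD, n = 3 each). With the GC trend removed the log2 fold change was -0.15 and still passed (adjusted p = 0.0028).

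SLC7A7 (y+LAT1, chromosome 14 from 22773222 to 22829820), which exports cationic amino acids such as arginine in exchange for neutral ones, had 329.5, 321 and 317 CPM in the controls and 272, 271.5 and 289.9 CPM with RAC3. Its groups did not overlap, and the log2 fold change was -0.22 (SE 0.0423, adjusted p = 0.00082). SLC7A6 (y+LAT2, chromosome 16 from 68264516 to 68301823), which carries out the same exchange, moved the other way, with 81.0, 85.1 and 85.1 CPM in the controls and 101, 92.1 and 99.2 CPM with RAC3 (log2 fold change 0.22, SE 0.0553, adjusted p = 0.0057). In FPKM the groups of SLC7A6 overlapped, and its call was lost with limma on log2 FPKM (adjusted p = 0.16). The FPKM of SLC7A7 was 11.6, 8.88 and 8.95 times that of SLC7A6 in the controls and 7.33, 7.86 and 7.49 times in the RAC3 samples, so SLC7A7 stayed the more abundant of the pair in every sample. SLC7A6 shares 3371 exonic bases with SLC7A6OS on the opposite strand. SLC7A6OS had 32.2, 28.97 and 29.4 CPM in the controls and 34.2, 32.3 and 34.6 CPM with RAC3, with a log2 fold change of 0.16 that did not pass (adjusted p = 0.12). Without strand in the counting, reads of the pair cannot be told apart over the shared bases.

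SLC7A10 (Asc-1), an exchanger of small neutral amino acids, was low, with 8.53, 7.33 and 9.87 CPM in the controls and 6.08, 5.59 and 5.82 CPM with RAC3 (log2 fold change -0.56, SE 0.156, adjusted p = 0.011). Its call was lost without negative control 3 (adjusted p = 0.069) and with the GC trend removed (log2 fold change -0.39, adjusted p = 0.082). SLC7A11 (xCT), which exchanges glutamate for cystine to feed glutathione synthesis, had 26.7, 33.6 and 32.6 CPM in the controls and 35.5, 31.2 and 31.4 CPM with RAC3, and the groups overlapped (log2 fold change 0.08, adjusted p = 0.56). SLC7A8 (LAT2) had 4.24 to 5.19 CPM in the controls and 5.04 to 5.89 CPM with RAC3 (log2 fold change 0.23, SE 0.179, adjusted p = 0.35). Together the 6 light chains had 357.5 ± 5.38 FPKM in the controls and 315.8 ± 5.49 FPKM with RAC3 (SD, n = 3 each), a ratio of 0.883. Relative to SLC3A2, their summed FPKM was 2.08, 2.17 and 2.11 times the heavy chain in the controls and 2.04, 1.89 and 1.96 times in the RAC3 samples.

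Both neutral exchangers of the SLC1 family were lower. SLC1A5 (ASCT2, ENSG00000105281, chromosome 19 from 46774883 to 46788594), the main glutamine exchanger of many tumour cells, had 476, 466 and 482 CPM in the controls and 359, 403 and 397 CPM with RAC3. The controls spanned 15.6 CPM, and the nearest RAC3 sample lay 63.1 CPM under them. The log2 fold change was -0.30 (SE 0.0449, adjusted p = 7.3e-05), and with the GC trend removed it was -0.13 (adjusted p = 0.015). SLC1A4 (ASCT1), which exchanges alanine, serine and cysteine, had 78.7, 76.4 and 75.9 CPM in the controls and 65.0, 66.2 and 70.1 CPM with RAC3 (log2 fold change -0.20, SE 0.0562, adjusted p = 0.012). With scaling by library size alone its adjusted p was 0.061. Summed, ASCT1 and ASCT2 had 192.3 ± 2.16 FPKM in the controls and 165.5 ± 10.3 FPKM with RAC3 (SD, n = 3 each), and SLC1A5 was between 9.40 and 10.9 times as abundant as SLC1A4 per length in every sample.

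Of the glutamate and aspartate carriers of the same family, 3 were tested, and 1 was called, as higher. This was SLC1A1 (EAAT3), with 15.04, 14.5 and 13.4 CPM in the controls and 17.1, 18.6 and 17.02 CPM with RAC3 (log2 fold change 0.30, SE 0.1001, adjusted p = 0.031). The call was lost when any RAC3 sample, negative control 2 or negative control 3 was left out (adjusted p from 0.0503 to 0.12) and with the GC trend removed (adjusted p = 0.11). SLC1A3 (EAAT1), the most abundant of them at 17.1 FPKM, had 52.4, 55.0 and 53.7 CPM in the controls and 64.8, 53.8 and 55.0 CPM with RAC3 (log2 fold change 0.11, adjusted p = 0.26). SLC1A7 (EAAT5), a carrier known from retina, was rare, with 44, 37 and 73 counts in the controls and 22, 35 and 34 counts with RAC3. Its log2 fold change of -0.77 (SE 0.290) was past the 1.5-fold threshold with an unadjusted p of 0.015, but the adjusted p was 0.052. It fell to 0.049 without RAC3 sample 3 and to 0.043 without negative control 2. Leaving out any other sample gave no pass, and the log2 fold changes of these fits ranged from -0.96 to -0.52. With the GC trend removed the log2 fold change was -0.62 (adjusted p = 0.14). SLC1A2 and SLC1A6, glutamate carriers of brain, had 0 counts in all 6 samples.

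Among the cationic amino acid carriers, SLC7A2 (CAT2, chromosome 8), which is known for high levels in liver, had 179, 197 and 189 CPM in the controls and 161, 161 and 167 CPM with RAC3. The RAC3 samples were closely grouped under the controls, with a log2 fold change of -0.21 (SE 0.0477, adjusted p = 0.0029), and with the GC trend removed it was -0.33 (adjusted p = 8.8e-06). SLC7A1 (CAT1), the widely expressed arginine and lysine carrier, had 142, 145 and 148 CPM against 129.8, 135 and 134 CPM (log2 fold change -0.13, SE 0.0468, adjusted p = 0.045). Its call was lost without any RAC3 sample, negative control 2 or negative control 3 (adjusted p from 0.065 to 0.12) and with the GC trend removed (adjusted p = 0.22). SLC7A4 was near the floor, with 0.425 to 1.27 CPM over all samples (adjusted p = 0.62). SLC7A3 and SLC7A14 had a single count each over all samples. The summed CAT level was 45.8 ± 1.90 FPKM in the controls and 41.7 ± 0.497 FPKM with RAC3 (SD, n = 3 each).

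SLC43A1 (LAT3, ENSG00000149150, chromosome 11 from 57484534 to 57515786), a facilitator of leucine, phenylalanine and methionine, had the second smallest p-value of the 38 genes. It had 213, 208 and 205 CPM in the controls and 151, 162 and 163 CPM with RAC3, with 41.7 CPM between the groups. The log2 fold change was -0.40 (SE 0.0466, adjusted p = 5.2e-06). In FPKM it went from 95.1 ± 1.28 to 76.4 ± 3.12 (SD, n = 3 each). With the GC trend removed the log2 fold change was -0.26 and passed (adjusted p = 5.1e-05). SLC43A3, which lies 57.0 kb from SLC43A1 and carries purine bases, had 87.3, 89.0 and 85.9 CPM against 82.7, 76.5 and 79.9 CPM, with the groups apart but an adjusted p of 0.075 (log2 fold change -0.13). SLC43A3 shares 1349 exonic bases with another gene of the table on the same strand. SLC43A2 (LAT4) was low with 4.91 to 6.02 CPM in the controls and 5.91 to 6.31 CPM with RAC3 (log2 fold change 0.18, adjusted p = 0.46). In FPKM its groups were apart, with 1.455 to 1.88 in the controls and 2.31 to 2.78 with RAC3. On the log2 FPKM scale plus 0.1 or plus 1 it passed with limma (0.57 and 0.40, adjusted p = 0.044 and 0.037). The summed SLC43 level was 134.6 ± 3.22 FPKM against 113.4 ± 2.26 FPKM (SD, n = 3 each). Without SLC43A1 the ratio of 0.843 became 0.938.

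The SLC6 family couples uptake to sodium and chloride and holds carriers of osmolytes, neurotransmitters and amino acids. SLC6A8 (CRTR, ENSG00000130821, chromosome X from 153688099 to 153696593), which imports creatine, had 251, 206 and 183 CPM in the controls and 123, 113 and 124 CPM with RAC3. The controls were more widely spread than the RAC3 samples, and the lowest control still exceeded the highest RAC3 sample by 59.5 CPM. The log2 fold change was -0.83 (SE 0.0781, adjusted p = 3.7e-07), which is 1.78-fold lower and the smallest p among the 38 genes. Without negative control 1 it was -0.70, and with the GC trend removed -0.64 (adjusted p = 1.4e-06). SLC6A8 has a pseudogene copy, SLC6A10P on chromosome 16, that is not among the genes of the table, and reads of the copy could have been counted to it. SLC6A6 (TauT), the taurine carrier, had 118, 127 and 129 CPM in the controls and 122, 109 and 121 CPM with RAC3, and did not pass (log2 fold change -0.09, adjusted p = 0.24). SLC6A11 (GAT3) had 2.36 to 3.40 CPM over all samples (adjusted p = 0.46). The summed level of the osmolyte and neurotransmitter carriers was 83.4 ± 5.87 FPKM in the controls and 59.2 ± 4.17 FPKM with RAC3 (SD, n = 3 each), a ratio of 0.710. Without SLC6A8 it was 0.957.

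Among the SLC6 amino acid carriers, SLC6A9 (GLYT1, chromosome 1 from 43991500 to 44031467), the glycine importer, had 39.1, 45.2 and 43.7 CPM in the controls and 28.3, 28.4 and 28.7 CPM with RAC3. The 3 RAC3 samples were almost equal, and the log2 fold change of -0.59 (SE 0.0735, adjusted p = 9.9e-06) was just past the 1.5-fold threshold, which is 0.58 on this scale. It moved under that threshold without negative control 3 (-0.57) or negative control 2 (-0.55), and was -0.43 with the GC trend removed (adjusted p = 0.00032). SLC6A9 shares 404 exonic bases with CCDC24 on the opposite strand. SLC6A14 (ATB0,+), a carrier of neutral and cationic amino acids, had 26.2, 25.0 and 29.1 CPM in the controls and 22.2, 22.0 and 22.2 CPM with RAC3 (log2 fold change -0.28, SE 0.0841, adjusted p = 0.019). The call was lost without RAC3 sample 3 (adjusted p = 0.051) or negative control 3 (adjusted p = 0.098), while with the GC trend removed the log2 fold change was -0.45 (adjusted p = 0.00039).

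SLC6A19 (B0AT1), the neutral amino acid importer of gut and kidney, had 26.7, 20.9 and 24.8 CPM in the controls and 16.6, 21.9 and 21.2 CPM with RAC3, which overlapped (log2 fold change -0.28, SE 0.110, adjusted p = 0.062). It passed without RAC3 sample 2 (adjusted p = 0.040) or negative control 2 (adjusted p = 0.029). Leaving out any other sample gave no pass, and the log2 fold changes of these fits ranged from -0.38 to -0.16. With the GC trend removed the log2 fold change was -0.17 (adjusted p = 0.25). SLC6A15 and SLC6A16, with 0.638 to 1.58 and 0.638 to 1.13 CPM over all samples, had standard errors of 0.404 and 0.402 and gave no usable difference. The summed level of the SLC6 amino acid carriers was 25.4 ± 1.76 FPKM in the controls and 19.8 ± 0.595 FPKM with RAC3 (SD, n = 3 each).

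None of the lysosomal and other SLC38 genes passed, 0 of 5 tested. SLC38A10 had 147, 136 and 141 CPM in the controls and 119.9, 133 and 136 CPM with RAC3 (log2 fold change -0.12, adjusted p = 0.093), and its log2 fold change was 0.08 with the GC trend removed. SLC38A9, the arginine sensor of the lysosomal membrane, had 17.6, 17.6 and 16.3 CPM against 16.0, 17.3 and 15.4 CPM (log2 fold change -0.08, adjusted p = 0.59). SLC38A7, a lysosomal glutamine exporter, had 36.7, 33.4 and 36.1 CPM against 35.6, 37.3 and 37.4 CPM (log2 fold change 0.06, adjusted p = 0.59). SLC38A6 had 11.9 to 12.3 CPM in the controls and 10.3 to 12.1 CPM with RAC3 (adjusted p = 0.58), and SLC38A11 had 0.567 to 1.28 CPM over all samples (adjusted p = 0.89). Their summed level was 62.8 ± 2.57 FPKM in the controls and 61.4 ± 3.00 FPKM with RAC3 (SD, n = 3 each), a difference smaller than the spread.

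The proton-coupled SLC36 carriers gave no call either, 0 of 2 tested. SLC36A1 (PAT1), which exports small amino acids from the lysosome, had 30.2, 32.0 and 32.4 CPM in the controls and 34.9, 32.7 and 34.1 CPM with RAC3 (log2 fold change 0.10, SE 0.0718, adjusted p = 0.30). The groups did not overlap, with a gap of 0.34 CPM. SLC36A4 (PAT4) had 14.6, 16.8 and 17.4 CPM against 17.1, 17.4 and 20.9 CPM (log2 fold change 0.17, SE 0.107, adjusted p = 0.25). SLC36A2 and SLC36A3, the neighbours of SLC36A1 on chromosome 5, had 0 counts in all samples.

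Several of the called genes share exonic bases with genes on the opposite strand, which counting without strand could have mixed. Besides SLC7A6 and SLC6A9, SLC1A5 shares 780 bases with AC008622.2, SLC7A5 shares 271 with AC126696.2 and SLC7A10 shares 204 with LRP3. SLC7A5 has the pseudogene copies SLC7A5P1 and SLC7A5P2 on chromosome 16, which are not among the genes of the table. The part of such reads in these counts was not tested.

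**Figure D3:**
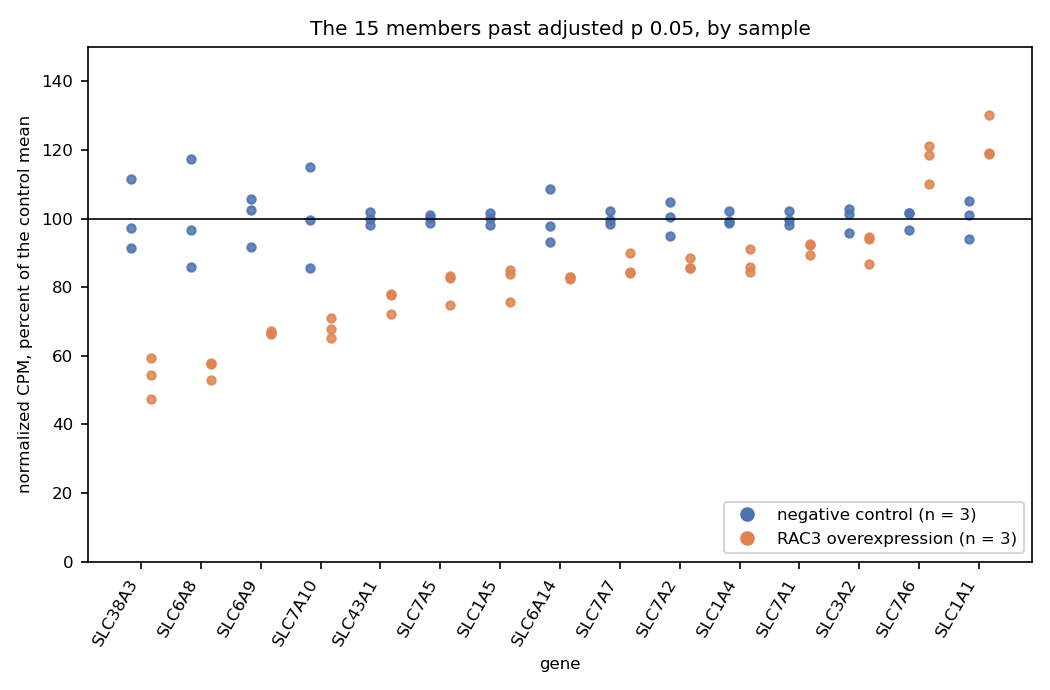
Normalized CPM of the 15 called transporter genes in every sample, as percent of the gene's control mean (vertical axis), with genes ordered by log2 fold change and a point for each of the 3 negative controls and 3 RAC3 samples. In all 15 genes the RAC3 points lie on one side of the control points, with the widest control spread in SLC6A8 and SLC7A10.

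The 22 genes that were not tested had few or no counts in these cells. Of these, 11 had 0 counts in all 6 samples, among them the glutamate carriers SLC1A2 and SLC1A6, the proton-coupled SLC36A2 and SLC36A3, SLC38A8, the noradrenaline and dopamine carriers SLC6A2 and SLC6A3, and SLC6A5, SLC6A7 and SLC6A18. The other 11 had at most 12 counts in any sample. SLC3A1 had 9, 12 and 6 counts in the controls and 11, 6 and 0 with RAC3, SLC38A5 had 2, 9 and 6 against 4, 10 and 5, and SLC6A12, a betaine carrier of liver and kidney, had 2, 3 and 6 against 5, 8 and 10. SLC6A4, the serotonin carrier, had 7, 2 and 3 counts against 3, 1 and 1, SLC7A9, the light chain of SLC3A1, had 5, 0 and 1 against 1, 1 and 1, and SLC6A13 had 1, 1 and 2 against 5, 0 and 0. SLC6A20 had 4 counts in RAC3 sample 1 and 0 elsewhere. SLC6A17, SLC7A3, SLC7A13 and SLC7A14 had a single count in a single sample. No difference was detectable in these genes at this depth.

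The fold changes of the transporter genes moved with the GC content of their transcripts. Over the 38 genes tested, log2 fold change and GC content of the longest transcript had a Pearson correlation of -0.60 and a Spearman correlation of -0.61, and over all genes with a GC content the Spearman correlation was -0.52. With transcript length, log2 fold change had a Spearman correlation of 0.45 over the 38 genes. These are correlations across genes of the same libraries, and genes are not independent replicates. The lower genes had a median GC content of 58.2%, the higher ones 45.6%, those that did not pass 50.8%, and all genes tested 48.6%. With each library's trend of counts with GC content removed, 11 of the 15 called genes were still called, among them SLC6A8, SLC38A3, SLC6A9, SLC43A1, SLC7A5, SLC1A5, SLC7A7, SLC7A2 and SLC7A6. The calls of SLC3A2, SLC7A1, SLC7A10 and SLC1A1 were lost. SLC7A2 and SLC6A14, with a GC content of 41.0% and 37.0%, were the lower genes with the least GC, and their log2 fold changes became larger in size with the trend removed. The median over the 38 genes was -0.12 both with and without the trend.

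**Figure D4:**
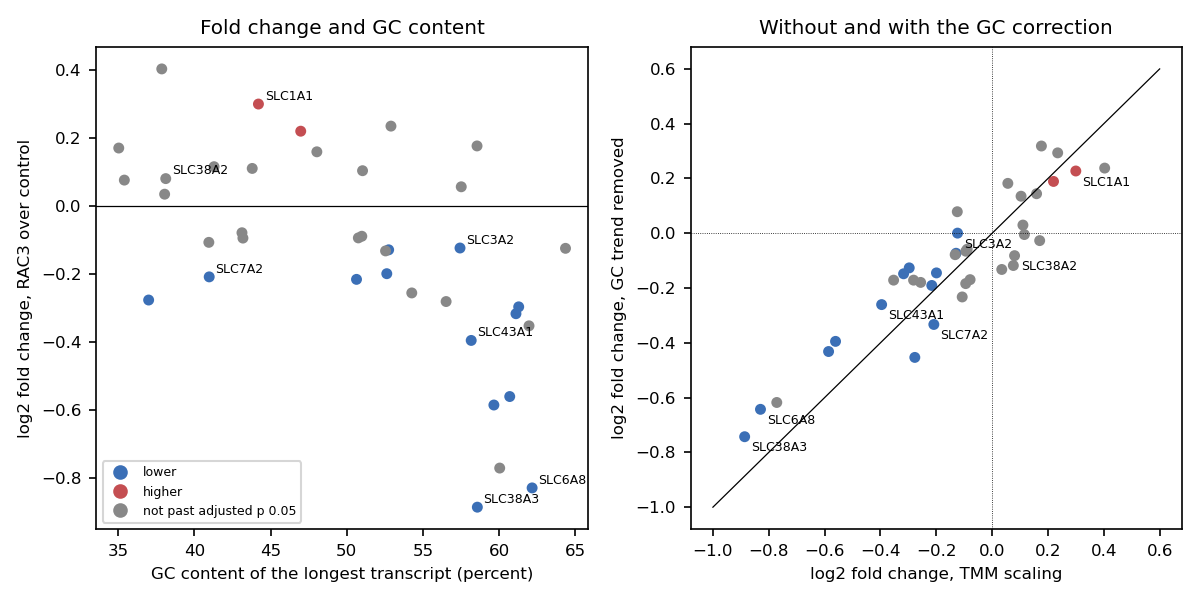
Log2 fold change of the 38 transporter genes tested against the GC content of their longest transcript in percent (left), and the log2 fold change with each library's GC trend removed against that with TMM scaling alone, with the line of equality (right); colours mark the calls with TMM scaling alone. The lower genes lie mostly at the GC-rich end of the left panel (median 58.2%), and on the right SLC6A8 and SLC38A3 keep the lowest values of the called genes.

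Genes that act beside the transporters were counted in the same fit. Of 32 genes of the amino acid response through ATF4, 31 were tested, 16 were lower and 3 higher, beside 15.3% lower and 13.3% higher of all genes tested, and their median log2 fold change was -0.19. For the lists that follow the counts stand beside these same shares. Members of this list with the smallest p-values were ASNS (asparagine synthetase) with -0.76, PSAT1 and PHGDH (serine synthesis) with -0.61 and -0.60, PCK2 (mitochondrial phosphoenolpyruvate carboxykinase) with -0.67 and CBS (transsulfuration) with -0.57, while ATF3 (0.40), EIF2S1 (0.26) and EIF2AK4 (0.21) were higher. The calls of EIF2S1 and EIF2AK4 were lost with the GC trend removed (adjusted p = 0.11 and 0.068), and that of EIF2AK4 also without negative control 1, 2 or 3 or RAC3 sample 1 or 3. Lower calls were lost as well. Several of the lower genes not named here did not pass without RAC3 sample 3 (adjusted p from 0.053 to 0.17). Another did not pass with the GC trend removed (adjusted p = 0.12). ATF4 itself, named after its values were seen, had 524, 555 and 562 CPM in the controls and 505, 533 and 524 CPM with RAC3 (log2 fold change -0.07, adjusted p = 0.20). Of the 4 lower transporter genes with a CARE core, none was past the 1.5-fold threshold.

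Of 16 enzymes of glutamine and glutamate metabolism tested, 6 were lower and 1 was higher. Glutamine synthetase GLUL had 332, 327 and 329 CPM against 289.985, 315 and 295 CPM (log2 fold change -0.14, adjusted p = 0.021). Its call was lost without RAC3 sample 1 or 3 or negative control 2 (adjusted p from 0.057 to 0.098). Of 13 glutathione genes, 4 were lower, led by the glutathione peroxidase GPX4 (-0.33, adjusted p = 7.3e-05), and 2 were higher, the glutamate-cysteine ligase subunits GCLC (0.25) and GCLM (0.26), whose calls were lost with the GC trend removed. That of GCLC was also lost without RAC3 sample 1 or 3 or negative control 3 (adjusted p from 0.092 to 0.13). Of the lower glutathione genes, GGT7 lost its call with the GC trend removed (adjusted p = 0.19). Of 14 arginine and urea cycle genes, 4 were lower and 0 higher, in all a share close to the 28.5% called of all genes tested. The 4 were ASS1, argininosuccinate synthase (-0.49, adjusted p = 9.2e-07), ARG2, mitochondrial arginase (-0.69), NAGS, which makes the activator of carbamoyl phosphate synthesis (-0.97), and GAMT, the last enzyme of creatine synthesis (-0.42, adjusted p = 6.9e-06).

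Of 20 genes of branched-chain amino acid breakdown, 4 were lower and 2 higher, in all a share close to the 28.5% called of all genes tested. BCAT1, the cytosolic aminotransferase, was at -0.27 (adjusted p = 0.00018). With the GC trend removed, 3 genes of this list were called. Of 32 genes of amino acid sensing upstream of mTORC1, 3 were lower and 3 higher, beside 28.5% called of all genes tested. All of these calls were lost with the GC trend removed (adjusted p from 0.10 to 0.56). Of 15 amino acid carriers outside these SLC families, 4 were lower and 0 higher, namely SLC25A22 (mitochondrial glutamate, -0.33), SLC15A4 (lysosomal histidine and peptides, -0.36), SLC17A7 (vesicular glutamate, -1.10) and SLC25A29 (mitochondrial basic amino acids, -0.50). Of these 4, SLC25A22 alone kept its call whichever sample was left out, and it lost it with the GC trend removed (adjusted p = 0.24). Leaving out RAC3 sample 1 took the call from SLC15A4, SLC17A7 and SLC25A29 (adjusted p = 0.082, 0.13 and 0.082), and so did leaving out RAC3 sample 2 (0.057, 0.058 and 0.062) or negative control 2 (0.090, 0.081 and 0.23). Without negative control 1 the adjusted p was 0.051 for SLC15A4 and 0.15 for SLC17A7, and without RAC3 sample 3 it was 0.057 for SLC17A7 and 0.091 for SLC25A29. DESeq2 did not call these 3 genes (adjusted p from 0.064 to 0.076), and on the log2 FPKM scale none of the 4 passed with limma (adjusted p from 0.096 for SLC17A7 to 0.80 for SLC25A29).

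Partners of the transporters gave 2 higher and 0 lower of 6 tested. NEDD4L, a ubiquitin ligase that removes several carriers from the membrane, was one of the higher genes and had 153, 150.3 and 145 CPM in the controls and 178, 168 and 178 CPM with RAC3 (log2 fold change 0.23, SE 0.0469, adjusted p = 0.0014).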

How the data were processed

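Polyadenylated RNA of Huh-7 cells with stable RAC3 overexpression (3 samples) and of negative controls (3 samples) was sequenced on an Illumina instrument. Per gene and sample, the deposited table gives counts without normalization, FPKM values that the authors normalized by transcript length and library size, and the authors' mean FPKM of each group, which was not used. The submitters' processing notes name Bowtie2 2.2.8, HISAT2, StringTie 1.3.1 and DESeq2, and the genome build, the annotation and the strand setting of the counting are not given in the sources used here. Samples were grouped by their titles.

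The counts went into edgeR 4.0.16 (R 4.3.3), where filterByExpr with the groups left 12941 of 20332 genes, TMM scaled the libraries, and the quasi-likelihood F test, two-sided and with no covariate, gave p-values that were adjusted by the Benjamini-Hochberg method over all genes tested. The common biological coefficient of variation was 0.0533. On simulated counts of 12935 genes for this comparison the steps found 58% of genes changed 1.25-fold, 94% of those changed 1.5-fold and 100% of those changed 2-fold or 3-fold, with 5 false calls. In the simulated counts every gene had the same coefficient of variation of 0.053, no trend with GC content was put in, and 49 or 50 genes were changed at each fold. Far more genes were called in the real counts, so these rates need not hold for them. The thresholds of a fold change above 1.5 and an unadjusted p below 0.05 are those of the series. Gene positions, transcript lengths and GC content came from GENCODE release 29, which held 20113 of the genes, and promoter windows from RefSeq on GRCh38.p14.

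The transporter genes, the other gene lists and the motifs were chosen with earlier results of these data known, and the minimum of 1000 mean counts was set after the values were seen. Genes are given in every sample if they passed the thresholds of the series, were among the 12 with the smallest p-values of the called genes or among the 10 most abundant, or belong to a transport system described. From each other list, up to 5 genes a direction with the smallest p-values among those with an adjusted p below 0.05 were open to naming. The samples with the same replicate number did not deviate together (correlations of -0.09, -0.05 and -0.02 over 11221 genes), so no block was used. Alternatives were other scalings (DESeq2's size factors, upper quartile, library size alone), other filters, limma-voom, the exact test of edgeR, DESeq2 1.42.0 and limma 3.58.1 on log2 of the deposited FPKM plus 0.1 or 1, a replicate block, leaving out each sample, and counts corrected for the GC trend of their library (lowess, span 0.3). No samples deposited as replicates agreed within sampling noise. No 3 samples against 3 can reach an exact permutation p under 0.1, and such tests were not used. Some genes of these lists are counted but not reported here by name.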

Additional observations from a re-analysis of the deposited data

How the results depend on the processing

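Of the 15 calls, those of SLC1A5, SLC38A3, SLC43A1, SLC6A8, SLC6A9, SLC7A5 and SLC7A7 held under all 18 alternatives. With limma on log2 FPKM plus 0.1 or plus 1, the genes called over the whole table fell from 3691 to 2162 and 2161, the transporter genes called from 15 to 9 and 9, those lower from 13 to 7 and 7, the genes called in the other lists from 49 to 32 and 32, and the transporter genes past the series' thresholds from 4 to 3 and 2. The median of the transporter genes was then -0.069 and -0.067, and -0.059 with library size alone. On the log2 FPKM scale the higher calls of SLC7A6 and SLC1A1 were both lost with limma (adjusted p = 0.16 and 0.11). In their place SLC38A1 (adjusted p = 0.027) and SLC43A2 (adjusted p = 0.044 and 0.037) were called higher. The higher genes numbered 1 with DESeq2, 1 with the GC trend removed and 4 with library size alone. No transporter gene passed a fold change above 2 (0 of 4), and glmTreat against a 1.2-fold change called 4. Leaving out each sample in turn gave 11 to 15 transporter genes called, 9 to 14 lower, 1 to 2 higher, 2 to 4 past the series' thresholds (2 without negative control 3, when SLC1A7 and SLC6A9 dropped out), 36 to 46 calls in the other lists and medians from -0.14 to -0.12. The summed level ratios were 0.850 for the light chains and 0.811 for SLC43 in CPM, and without the most abundant gene 0.867 for the light chains, 0.938 for SLC43, 0.874 for the SLC6 amino acid carriers and 0.957 for the SLC6 osmolyte and neurotransmitter carriers. The cause of these shifts was not tested.

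The replicate numbers did not pair the samples, and with the replicate block 13 transporter genes were called, 11 lower and 2 higher, and 3 were past the series' thresholds. SLC3A2 and SLC7A1 lost their calls under the block.

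Directions that turned belonged to genes without a call, apart from SLC3A2 at 0.00048. With the GC trend removed they were SLC36A4 at -0.027, SLC38A1 at -0.0048, SLC38A10 at 0.079, SLC38A2 at -0.082, SLC6A15 at -0.13 and SLC7A11 at -0.12. On log2 FPKM they were SLC1A3 at -0.022 and -0.022 and SLC38A11 at 0.22 and 0.069. SLC6A15 was at -0.033 with the replicate block. Without single samples, SLC38A2 ranged from -0.0011 to 0.16, SLC7A11 from -0.020 to 0.13, SLC38A11 from -0.58 to 0.31, SLC6A15 from -0.35 to 0.28, SLC6A16 from -0.30 to 0.066 and SLC7A4 from -0.72 to 0.080.

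FPKM values moved against CPM between samples for some genes, by 3.56 times in SLC38A11, 2.61 in SLC6A16 and 1.85 in SLC6A15. The range was 1.69 times in SLC36A4, 1.67 in SLC38A4, 1.64 in SLC1A3, 1.57 in SLC43A2 and 1.54 in SLC7A8. Among called genes it was 1.32 times in SLC38A3, 1.24 in SLC6A8 and 1.19 in SLC7A6, beside 1.05 in SLC3A2. For genes with a wide range the deposited FPKM does not rest on a constant length. Genes under about 50 counts, such as SLC1A7, SLC7A4 and SLC6A16, are limited by depth.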
